A study of Sesamum indicum with 195 samples.

Results

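A group of 200 sesame genes was examined in roots, chosen because their transcript level fell under waterlogging and came back to that of control plants once the pots were drained. Expression was measured by RNA sequencing in roots of 2 genotypes at the flowering stage: Ezhi No.2 (EG), described as sensitive to waterlogging, and ZZM2541 (R2G), described as tolerant. The levels are TPM, a transcript abundance scaled to gene length and to a fixed total per sample. For each genotype, time point and treatment, L was log2 of the mean TPM of 3 replicates plus 1, and d was L in the stressed roots minus L in the control roots of the same genotype and time. W was the mean d over both genotypes at 4, 8, 12, 16, 20, 24 and 32 h of waterlogging, and D was the mean d at 40, 44 and 48 h, in drainage. Of 20271 genes, 18178 had a mean TPM of at least 1. Of these, 397 had W at or below -1.5 and D between -0.5 and 0.5, and the 200 with the lowest W were kept. The group was thus selected on its measured values of W and D.

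Flooded soil holds little oxygen, because gases move far more slowly in water than in air. Roots without oxygen make much less ATP, turn to fermentation, and reduce the transcription and translation of many genes that serve growth and uptake. When the water drains, oxygen returns, and roots that have survived can resume these activities. The deposited identifiers have no descriptive names in the sources used here, so the genes are described by identifier, position and level, and no function is given to any of them.

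The 195 samples formed 65 conditions of 3 replicates, each replicate a single plant from another pot. The stressed series of each genotype held 3 samples at 0 h, which the labels describe as controls, 45 samples of waterlogging, taken every 2 h from 2 to 24 h and at 28, 32 and 36 h, and 18 samples of drainage at 38, 40, 42, 44, 46 and 48 h. For EG, 3 more samples came from plants labelled as wilting at 48 h, which the study's methods describe as dead, while the EG samples of drainage at 48 h were from surviving plants. The control, kept at normal soil moisture, was sampled at 4, 8, 12, 16, 20, 24, 32, 40, 44 and 48 h, with 30 samples per genotype. The choice of the genes used 120 samples. The other 75, which have no control of the same time point or were left out by the rule, are those at 0, 2, 6, 10, 14, 18, 22, 28, 36, 38, 42 and 46 h and the wilting plants. All differences tested below are between groups of these 75 samples, while the spread behind their errors and p-values was estimated over all 195 samples, those that the rule used included. The label on RNA extraction names 126 root samples, not 195, and whether some time points were extracted apart from others is not given in the sources used here. In bulk roots, fewer cells of a type and less RNA per cell cannot be told apart.

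Among the 200 genes, W ranged from -3.66 to -1.80 with a median of -2.04, against a median of -0.37 over all 18178 genes. D ranged from -0.50 to 0.47 with a median of -0.26, and it was below 0 for 150 genes and above 0 for 50. These values chose the genes and are given as a description. The last gene kept was LOC105163108, with W of -1.796, and the first left out by the limit of 200 was LOC105160935, with W of -1.794. At the lower limit of D, LOC105164482 with D of -0.499 was kept and LOC105166993 with D of -0.505 was left out. At the upper limit, LOC105163108 with D of 0.472 was kept and LOC105166098 with D of 0.544 was left out. In all 14 comparisons of waterlogged with control roots, 184 of the 200 genes were below control. These comparisons made up W, so the count is a description, and it was not made over all genes. In the linear model described below, 200 of the 200 were called lower in waterlogging against control. There 21.8% of all genes were called lower and 2.24% higher. In drainage against control 0 were called, where 2.33% of all genes were called higher and 9.68% lower. The counts of 200 and 0 follow from the rule. At an unadjusted p under 0.05, limma found 119 of the 200 in drainage against control, and 13345 of all 18178 genes. Because the rule bounds D, it also holds down the count among the 200 genes. No test is read from it. In that contrast the median log2 fold change was -0.28 over the 200 genes, of which 157 were below 0, and 0.00 over all genes.

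The median level over the 200 genes fell during waterlogging and rose in drainage in both genotypes. In EG it was 24.6 TPM at 0 h, 11.4 at 2 h, 5.84 at 4 h, 2.23 at 24 h and 1.75 at 36 h. In drainage it was 7.83 TPM at 38 h, 15.6 at 40 h, 15.4 at 42 h, 21.1 at 44 h, 26.7 at 46 h and 19.9 at 48 h. In R2G it was 24.2 TPM at 0 h, 9.99 at 2 h, 5.49 at 4 h, 2.77 at 24 h and 1.78 at 36 h, and then 10.1 at 38 h, 14.9 at 40 h, 27.1 at 42 h, 25.5 at 44 h, 32.8 at 46 h and 22.3 at 48 h. The genotypes were furthest apart at 42 h. The lowest median of both series was thus at 36 h, the last sampling before drainage, a time that the choice of genes did not use. Control medians lay between 15.4 and 30.9 TPM in EG and between 15.9 and 29.2 TPM in R2G, with the high end at 16 and 20 h in both. The highest control mean fell at 16 h for 54.5% of the 200 genes and at 20 h for 25.5%, against 24.7% and 13.4% of all genes. Because these control samples entered W, a gene that peaks in the control there has a lower W, and the shares are a description.

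**Figure D1:**
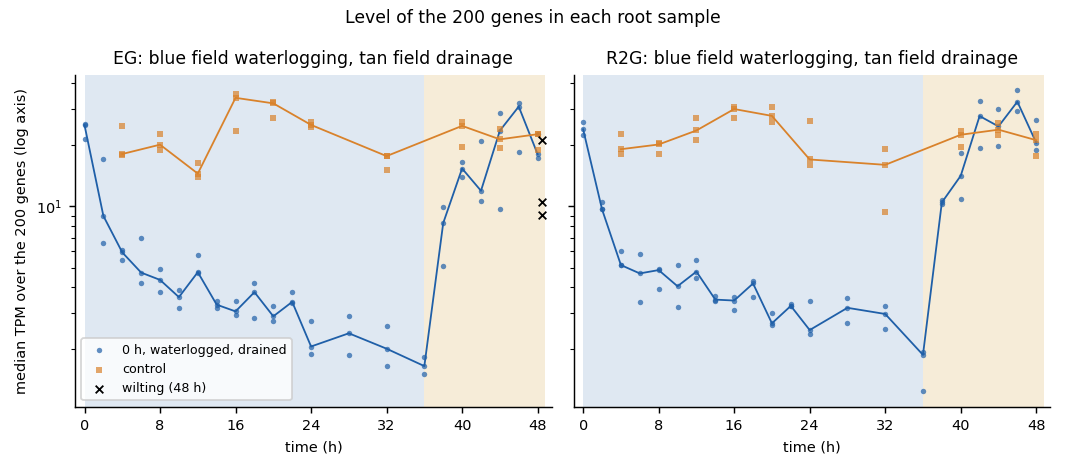
Median TPM over the 200 genes (log axis) against time in hours, with 1 point per root sample, for EG on the left and R2G on the right; lines join the middle of the 3 replicates, squares are controls and crosses are wilting EG plants at 48 h. The level fell to 1.75 TPM in EG and 1.78 TPM in R2G at 36 h and was near the controls by 44 h.

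The gene with the lowest W was LOC105172131 (linkage group 10, 6310314 to 6317889, genome v1.0). Its level had a lowest, median and highest value of 0, 0.673 and 16.8 TPM over the 90 waterlogged samples, 5.33, 28.4 and 111 TPM over the 36 drained samples, and 8.44, 27.9 and 66.1 TPM over the 60 controls. The drained and control ranges overlapped over most of their width, while 1 of the 90 waterlogged samples, from EG at 2 h, was above the lowest control. LOC105170573 (linkage group 9, 4258165 to 4258866), second in W at -3.59, had 0.16, 1.2 and 6.36 TPM in waterlogged roots, 7.09, 41.6 and 154 TPM in drained roots and 6.8, 25.7 and 91.1 TPM in controls. None of the 90 waterlogged samples reached the lowest of the 60 controls for this gene. Both genes were named for their low W, which 42 of the 90 waterlogged samples and their controls entered. The distance of these samples from the controls is thus a description, and it was not counted over all genes. The gene with the highest control level, LOC105155831 (linkage group 2, 11580302 to 11581015), had 2.62, 97.9 and 415 TPM in waterlogged roots, 6.82, 266 and 1292 TPM in drained roots and 179, 370 and 1172 TPM in controls, so that its waterlogged and control ranges overlapped. Mean control levels over the 200 genes ran from 4.26 to 431 TPM with a median of 23.5 TPM, against a median of 17.8 TPM over all genes.

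**Figure D2:**
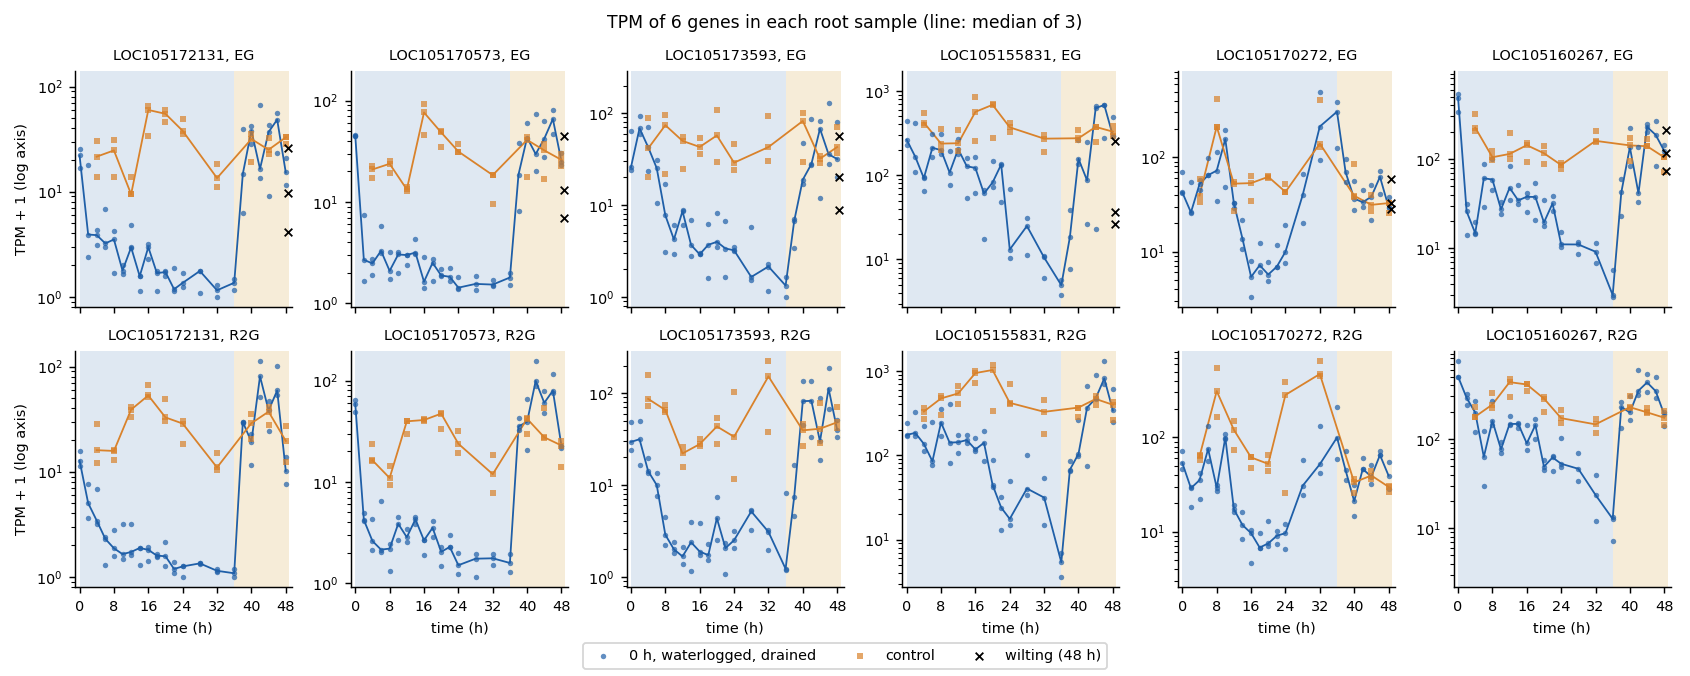
TPM plus 1 (log axis) against time in hours for 6 of the 200 genes, EG in the upper and R2G in the lower panels; blue points are the stressed series, tan squares controls and crosses wilting EG plants, with lines through the middle of 3 replicates and shaded waterlogging and drainage. LOC105172131 and LOC105170573 fell within hours and returned at 38 h, LOC105173593 returned later, and LOC105170272 rose again before drainage began. The controls of LOC105170272 also differed between times of sampling.

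The start of the fall was examined by setting 2 h of waterlogging against 0 h, with EG and R2G averaged (6 against 6 samples). Tests were made with limma on log2(TPM + 1) over all 18178 genes, and calls required a log2 fold change of at least 1 in size together with a p under 0.05 after Benjamini-Hochberg adjustment. Of the 200 genes, 109 were called lower and 4 higher at 2 h, where 23.1% and 6.3% of all genes were called. The median log2 fold change was -1.14 over the 200 genes and -0.51 over all genes. Control roots at 4 h also differed from 0 h, by a median of -0.24 over the 200 genes and -0.27 over all genes. By 1 or more, 19 of the 200 genes were lower and 14 higher in these controls, where 11.7% and 5.35% of all genes were. How much of the change at 2 h came with the time of sampling was not tested. The shift of all genes depends on scaling: with median-ratio scaling, in which a sample is divided by the median of its genes' ratios to their average level, the median over all genes was -0.04, and 61 of the 200 genes were called lower and 7 higher. On that scaling 1655 of all genes were lower and 1999 higher at 2 h. For 114 of the 200 genes all 6 samples at 2 h were below all 6 at 0 h, as they were for 34.1% of all genes.

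LOC105155587 (linkage group 2, 7881161 to 7884005) fell most in the first 2 h. It had 7.97, 1.88 and 1.69 TPM in EG and 9.47, 7.89 and 9.33 TPM in R2G at 2 h, against 167, 118 and 206 TPM in EG and 141, 104 and 271 TPM in R2G at 0 h. The groups were far apart, and the log2 fold change was -4.65 ± 0.26 (SE, limma adjusted p = 2.17e-34). Its level at 0 h was itself unusual, since its 60 control samples had a lowest, median and highest value of 2.59, 8.46 and 27.4 TPM. LOC105172933 (linkage group 10, 16565747 to 16568772) behaved alike. It had 23, 4.01 and 3.85 TPM in EG and 9.2, 10.4 and 7.54 TPM in R2G at 2 h, against 150, 167 and 133 TPM in EG and 107, 135 and 136 TPM in R2G at 0 h, and 2.97, 25.6 and 91.2 TPM as lowest, median and highest of the controls. Its log2 fold change was -3.92 ± 0.26 (SE, limma adjusted p = 4.32e-28). Against 0 h these 2 genes thus fell further than against control.

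Of the 4 genes that were higher at 2 h, LOC105157672 rose most. It had 11.9, 6.99 and 5.95 TPM in EG and 4.09, 8.99 and 3.02 TPM in R2G at 2 h, against 0.887, 1.78 and 3.05 TPM in EG and 1.11, 1.16 and 1.09 TPM in R2G at 0 h. All but 1 of the samples at 2 h were above all of those at 0 h, and the log2 fold change was 1.58 ± 0.32 (SE, limma adjusted p = 6.75e-06). LOC105174757 had 28.6, 16.6 and 6.88 TPM in EG and 47, 42.6 and 22.2 TPM in R2G at 2 h, against 4.91, 12.4 and 15.2 TPM in EG and 6.89, 6.32 and 5.87 TPM in R2G at 0 h. Its groups overlapped in EG, and the log2 fold change was 1.44 ± 0.38 (SE, limma adjusted p = 0.000371). Without the samples numbered replicate 1 it was 0.92, below the size needed for a call.

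Between 2 and 6 h of waterlogging, 60 of the 200 genes were called lower and 4 higher, with 4.31% and 2.46% of all genes called, and the median log2 fold change was -0.77 over the 200 genes and -0.01 over all genes. Of the 109 genes lower at 2 h, 27 were called lower again by 6 h, 80 were not called and 2 were called higher. Another 30 genes were not called at 2 h but were lower at 6 h than at 2 h, and 3 of the 4 genes that had been higher at 2 h were lower at 6 h than at 2 h. Both steps used the same samples of 2 h, so that a deviation in these moves the fold changes of both steps in opposite directions. LOC105166206 (linkage group 7, 4360908 to 4363699) fell most in this step. It had 1.87, 0 and 0.103 TPM in EG and 2.83, 0.0957 and 1.27 TPM in R2G at 6 h, against 13.1, 41.6 and 13.7 TPM in EG and 36.5, 197 and 27.4 TPM in R2G at 2 h. The groups did not overlap, and the log2 fold change was -4.31 ± 0.62 (SE, limma adjusted p = 6.02e-09).

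LOC105170272 (linkage group 9, 1962240 to 1966639) moved the other way. It had 97, 63.7 and 63.6 TPM in EG and 74.2, 131 and 54.9 TPM in R2G at 6 h, against 24.9, 25.1 and 54 TPM in EG and 28.5, 17.3 and 27.9 TPM in R2G at 2 h. All samples at 6 h were above those at 2 h, and the log2 fold change was 1.44 ± 0.33 (SE, limma adjusted p = 0.000203). LOC105170583 (linkage group 9, 4332510 to 4337453) had 356, 269 and 285 TPM in EG and 239, 324 and 232 TPM in R2G at 6 h, against 84.9, 99.99 and 144 TPM in EG and 119.9, 80.4 and 151 TPM in R2G at 2 h. It also rose, by 1.34 ± 0.26 on the log2 scale (SE, limma adjusted p = 6.56e-06). The samples at 6 and 2 h did not overlap. The controls of LOC105170583 ran from 89.6 to 1276 TPM with a median of 189 TPM, so that its level also varied widely without waterlogging.

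Over the 8 times of waterlogging without a control, 186 of the 200 genes were called lower than at 0 h and 0 higher (48 against 6 samples), where 33.6% and 6.78% of all genes were called. The median log2 fold change was -2.09 over the 200 genes and -0.62 over all genes. Controls from 4 to 48 h differed from 0 h by a median of -0.11 over the 200 genes and -0.26 over all genes. With median-ratio scaling 155 genes were called lower and 0 higher, with 17.6% and 13.8% of all genes. All 48 waterlogged samples were below all 6 samples of 0 h for 110 of the 200 genes and for 21.2% of all genes. The largest change was again in LOC105166206, which had a lowest, median and highest value of 0, 0.291 and 197 TPM in the 48 waterlogged samples, against 80.1, 196 and 1220 TPM in the 6 samples of 0 h. Its high end in waterlogging was at 2 h, and the log2 fold change was -6.74 ± 0.47 (SE, limma adjusted p = 2.68e-28). The controls of this gene had 0.46, 21.5 and 405 TPM, so that its median at 0 h was far above its control median. In the contrast with controls of the same times, which the rule used, its log2 fold change was -2.95.

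The return was examined by setting drainage at 38, 42 and 46 h against late waterlogging at 28 and 36 h, with the genotypes averaged (18 against 12 samples). Of the 200 genes, 188 were called higher and 0 lower, where 24.3% of all genes were called higher and 3.93% lower. The median log2 fold change was 2.33 over the 200 genes and 0.41 over all genes, and the values of the 200 genes ran from -0.52 to 5.44. With median-ratio scaling, which brought the median of all genes to -0.00, 180 of the 200 genes were called higher and 1 lower, and 14.1% of all genes were higher and 10.7% lower. For 90 of the 200 genes all 18 drained samples were above all 12 waterlogged samples, as they were for 13.3% of all genes.

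LOC105166206 rose most on drainage. It had a lowest, median and highest value of 6.89, 70.7 and 367 TPM in drained roots, against 0, 0.318 and 1.21 TPM in late waterlogging. No drained sample came near the waterlogged ones, and the log2 fold change was 5.44 ± 0.40 (SE, limma adjusted p = 3.83e-26). LOC105170573 had 7.09, 55.4 and 154 TPM in drained roots, against 0.16, 0.667 and 0.97 TPM in late waterlogging, and a log2 fold change of 4.93 ± 0.17 (SE, limma adjusted p = 3.08e-56). All 12 genes with the lowest W were called higher. Among them, LOC105171617 (linkage group 10, 1816166 to 1819698) had 9.59, 42.7 and 104 TPM in drained roots, against 0.436, 1.17 and 2.62 TPM in late waterlogging, and rose by 4.23 ± 0.14 (SE, limma adjusted p = 1.01e-58). LOC105175276 had 10.9, 33.6 and 53.3 TPM in drained roots, against 0.291, 2.18 and 4.56 TPM in late waterlogging, and rose by 3.52 ± 0.11 (SE, limma adjusted p = 1e-59). Neither gene had a drained sample within its waterlogged range. The other 8 rose by between 2.47 (LOC105169899) and 4.81 (LOC105172131) on the log2 scale.

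Among the 5 genes with the highest control levels, LOC105171352 (linkage group 10, 470022 to 473877) had 65.7, 204 and 421 TPM in drained roots, against 6.73, 17.1 and 28.8 TPM in late waterlogging. Its samples did not overlap either, and it rose by 3.47 ± 0.13 on the log2 scale (SE, limma adjusted p = 2.49e-53). LOC105155831 had 6.82, 166 and 1292 TPM in drained roots, against 2.62, 8.08 and 101 TPM in late waterlogging, with overlap, and rose by 3.59 ± 0.29 (SE, limma adjusted p = 2.28e-23). LOC105165797 and LOC105178944 rose by 2.79 and 2.27 on the log2 scale.

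The remaining one of these abundant genes, LOC105170583, was one of the 12 that were not called. It had a lowest, median and highest value of 74.5, 161 and 280 TPM in drained roots, against 69.6, 133 and 276 TPM in late waterlogging, so that the groups overlapped almost whole. The log2 fold change was 0.27 ± 0.16 (SE, limma adjusted p = 0.118), and it was -0.22 with median-ratio scaling. LOC105170272, the only one of the 200 with a negative value here, had 28.8, 56.5 and 95.8 TPM in drained roots, against 19.1, 62 and 381 TPM in late waterlogging. In both genes the low level lay in the middle of waterlogging. The mean of LOC105170583 was 17.8 TPM in EG and 23.4 TPM in R2G at 16 h, and 189 TPM in EG and 102 TPM in R2G at 36 h. Its controls had a lowest, median and highest value of 89.6, 189 and 1276 TPM. The mean of LOC105170272 was 4.52 TPM in EG at 16 h and 7.27 TPM in R2G at 16 h, and 270.4 TPM in EG and 122 TPM in R2G at 36 h. Its 3 control samples at 32 h had 139, 409.6 and 128 TPM in EG and 639, 445 and 469.5 TPM in R2G, and those at 16 h had 61.8, 52.3 and 33.5 TPM in EG and 45.8, 60.3 and 61.1 TPM in R2G, so that its level in controls also differed between times of sampling. The other 10 genes that were not called had log2 fold changes between 0.35 and 0.93.

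The return had begun within 2 h of drainage. Between 36 and 38 h (6 against 6 samples), 155 of the 200 genes were called higher and 2 lower, where 20.7% of all genes were higher and 4.55% lower. The median log2 fold change was 1.80 over the 200 genes and 0.34 over all genes. With median-ratio scaling 143 were called higher and 2 lower, with 11.3% and 10.6% of all genes. All 6 samples of 38 h were above all 6 of 36 h for 147 of the 200 genes and for 31.9% of all genes. The median level over the 200 genes was 8.27, 5.1 and 9.94 TPM in EG and 10.2, 10.7 and 10.4 TPM in R2G at 38 h, against 1.65, 1.51 and 1.82 TPM in EG and 1.24, 1.87 and 1.92 TPM in R2G at 36 h. No sample of 38 h overlapped those of 36 h on this median. All were still below the lowest median of a control condition, 15.4 TPM. Single control samples could be lower: the R2G control numbered 2 at 32 h had 9.42 TPM, within the range of 38 h.

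LOC105172131 showed the early return. It had 13.8, 5.33 and 38.9 TPM in EG and 28.1, 28.7 and 28.9 TPM in R2G at 38 h, against 0.358, 0.159 and 0.485 TPM in EG and 0, 0.0787 and 0.195 TPM in R2G at 36 h. The log2 fold change was 4.15 ± 0.30 (SE, limma adjusted p = 7.33e-26). At 38 h the R2G samples lay close together, while those of EG were spread widely. LOC105166206 had 72.6, 73.5 and 68.7 TPM in EG and 26.1, 17.7 and 21 TPM in R2G at 38 h, against 0.537, 1.19 and 1.21 TPM in EG and 0.291, 0.236 and 0.13 TPM in R2G at 36 h. It rose by 4.71 ± 0.62 (SE, limma adjusted p = 2.72e-11), and in both genotypes the replicates were close to each other.

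The 2 genes called lower at 38 h were LOC105170272 and LOC110011863. LOC105170272 had 53.8, 68.6 and 95.8 TPM in EG and 70.7, 34 and 43.8 TPM in R2G at 38 h, against 125, 381 and 304 TPM in EG and 209, 58.1 and 98.7 TPM in R2G at 36 h. The groups overlapped in R2G only, and the log2 fold change was -1.46 ± 0.33 (SE, limma adjusted p = 5.29e-05). LOC110011863 had 1.14, 2.36 and 1.76 TPM in EG and 1.42, 0.658 and 2.64 TPM in R2G at 38 h, against 3.79, 6.41 and 7.94 TPM in EG and 4.36, 2.6 and 3.19 TPM in R2G at 36 h, a log2 fold change of -1.08 ± 0.32 (SE, limma adjusted p = 0.00209). Its groups overlapped by 1 sample in R2G.

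After 38 h the genes went on rising. At 42 and 46 h against 38 h (12 against 6 samples), 120 of the 200 genes were called higher and 0 lower, where 6.76% of all genes were higher and 1.72% lower, with a median log2 fold change of 1.13 over the 200 genes and 0.19 over all genes. With median-ratio scaling 96 were called higher and 0 lower, with 4.70% and 2.41% of all genes. Of the 155 genes higher at 38 h, 88 were called higher again later and 67 were not. Another 31 genes were called higher in the later step alone, 12 genes were called in neither step, and LOC110011863 was lower at first and higher later. Both steps used the same samples of 38 h, so that a deviation in these moves the fold changes of both steps in opposite directions. LOC105173593 (linkage group 11, 8417652 to 8418819) rose most in the later step. It had 26.3, 86.2 and 26.9 TPM in EG at 42 h, 129, 26.9 and 34.7 TPM in EG at 46 h, 81.4, 136 and 32.3 TPM in R2G at 42 h and 111, 189 and 67 TPM in R2G at 46 h, against 6.1, 2.43 and 5.7 TPM in EG and 6.44, 3.58 and 15.4 TPM in R2G at 38 h. All later samples were above those at 38 h, and the log2 fold change was 3.25 ± 0.39 (SE, limma adjusted p = 3.92e-12). LOC105178850 rose by 3.20 ± 0.39 (SE, limma adjusted p = 1.07e-11). It had a lowest, median and highest value of 2.51, 33 and 129 TPM at 42 and 46 h, against 0.203, 3.14 and 6.03 TPM at 38 h.

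**Figure D3:**
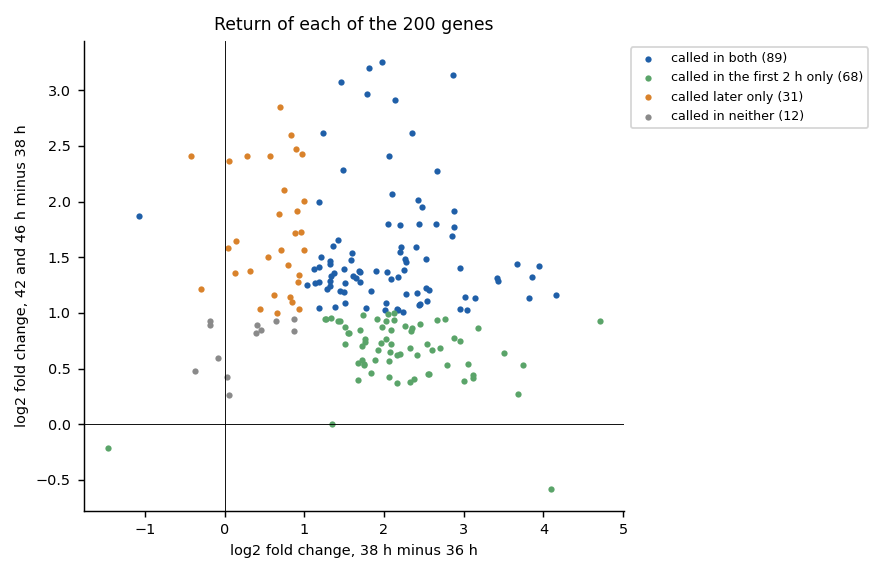
Log2 fold change of TPM plus 1 for each of the 200 genes, from 36 to 38 h on the horizontal axis and from 38 h to the mean of 42 and 46 h on the vertical axis, with 1 point per gene coloured by whether limma called it in the first step, the later step, both or neither. Of the 200 genes, 155 were called higher in the first step and 120 in the later one. Both steps share the samples of 38 h.

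Genes that fell early were compared with those that returned early. Of the 109 genes called lower in the first 2 h of waterlogging, 92 were called higher in the first 2 h of drainage and 17 were not called. Of the 87 genes not called in the first 2 h of waterlogging, 61 were called higher in the first 2 h of drainage, 24 were not called and 2 were lower. No test was made of the difference between these shares, and the same cross-count was not made over all genes. Of all genes, 20.7% were called higher in the first 2 h of drainage. On log2(TPM + 1) the change of a weakly expressed gene is understated in both comparisons.

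Drained roots at 38, 42 and 46 h were also compared with roots at 0 h (18 against 6 samples). Of the 200 genes, 34 were called lower and 10 higher, where 15.9% and 5.59% of all genes were called, and the median log2 fold change was -0.44 over the 200 genes and -0.22 over all genes. With median-ratio scaling 17 were called lower and 10 higher, with 10.9% and 7.83% of all genes. On either scaling the shares of the 200 genes, 17% and 5% or 8.5% and 5%, were close to those of all genes or below them. The 0 h samples precede the control series, and the 2 genes that were furthest below 0 h were the same that stood out at that time. LOC105155587 had a lowest, median and highest value of 2.3, 6.64 and 47.5 TPM in drained roots, against 104, 154 and 271 TPM at 0 h, a log2 fold change of -4.11 ± 0.21 (SE, limma adjusted p = 4.5e-38), while its control median was 8.46 TPM. LOC105172933 had 5.59, 19.2 and 188 TPM in drained roots, against 107, 135 and 167 TPM at 0 h, a log2 fold change of -2.39 ± 0.21 (SE, limma adjusted p = 1.1e-19). The medians of both genes in drained roots were close to those of their controls and far below those of 0 h. In the other direction, LOC105173132 had 1.01, 20.8 and 45.1 TPM in drained roots, against 1.49, 2.89 and 4.75 TPM at 0 h, and rose by 2.13 ± 0.34 (SE, limma adjusted p = 1.39e-08). LOC105162838 had 19.4, 88.5 and 236 TPM in drained roots, against 13.4, 25.4 and 42 TPM at 0 h, and rose by 1.73 ± 0.36 (SE, limma adjusted p = 8.64e-06). Some drained samples of both genes were within the range of 0 h. Their control medians, 22.0 TPM for LOC105173132 and 84.4 TPM for LOC105162838, were close to those of drained roots, so that for these genes too the 0 h samples stood apart from the controls.

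**Figure D4:**
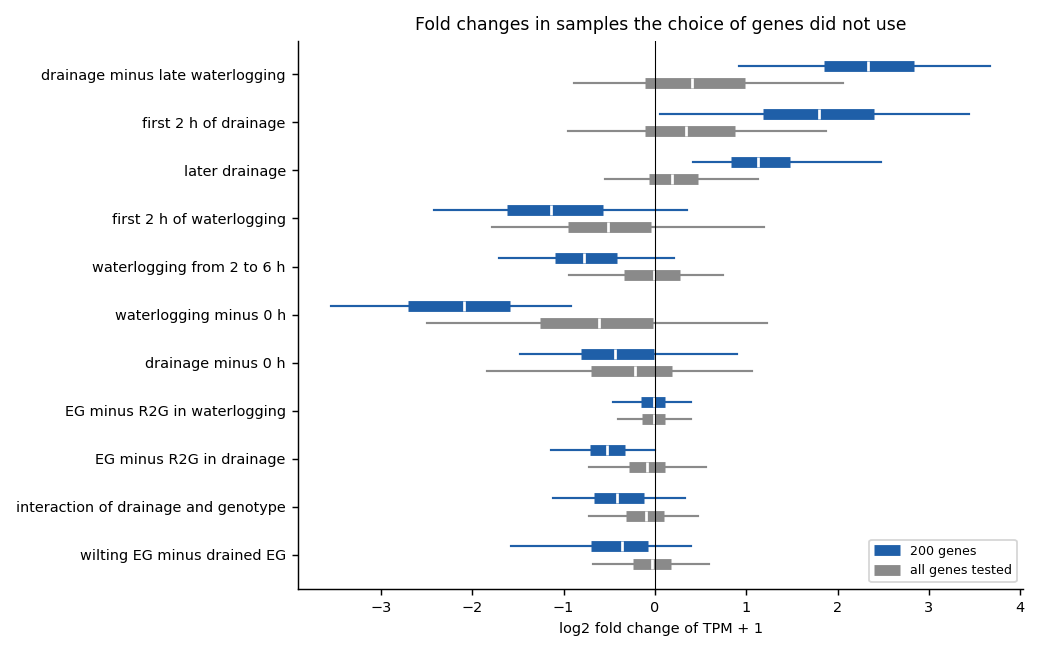
Log2 fold change of TPM plus 1 in the 11 comparisons made in samples that the choice of genes did not use, with thick bars from the lower to the upper quartile, thin lines from the 5th to the 95th percentile and white marks at the median, for the 200 genes (blue) and all 18178 genes (grey). The medians of the 200 genes were 2.33 in drainage minus late waterlogging and -2.09 in waterlogging minus 0 h, against 0.41 and -0.62 for all genes.

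The samples used by the rule and those not used alternate in time, and the levels of the 200 genes in them were compared without a test. Waterlogged roots at 6, 10, 14, 18 and 22 h differed from those at 4, 8, 12, 16, 20 and 24 h by a median of 0.05 on the log2 scale, with 4 genes higher and 6 lower by 1 or more, where 1.88% and 1.61% of all genes were. Drained roots at 42 and 46 h were above those at 40, 44 and 48 h by a median of 0.34, in 178 of the 200 genes. Over all genes the median was 0.13, and 69.0% were above. Single genes alternated strongly. LOC105175913 had mean levels of 0.992, 0.594 and 0.234 TPM in EG at 6, 10 and 14 h, against 14.8, 6.78 and 6.92 TPM in EG at 4, 8 and 12 h. LOC105178850 had 52.5 and 62.5 TPM in R2G at 42 and 46 h, against 8.78 and 8.00 TPM in R2G at 44 and 48 h. Whether time of day, handling or sequencing differed between the alternating times was not tested.

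During waterlogging the share of these genes called between EG and R2G was close to that of all genes. Over the 8 times without a control (24 against 24 samples), 1 of the 200 genes was called higher and 2 lower in EG, where 0.616% and 0.446% of all genes were called, and the median log2 difference was -0.01. LOC105160267 (linkage group 4, 8577270 to 8578961) had a lowest, median and highest value of 1.86, 27.1 and 87.7 TPM in waterlogged EG, against 6.11, 72.4 and 318 TPM in waterlogged R2G, a log2 difference of -1.73 ± 0.13 (SE, limma adjusted p = 2.12e-23). The controls of this gene overlapped, at 70.2, 130.1 and 321 TPM in EG and 117, 221 and 468 TPM in R2G. LOC105159474 (linkage group 3, 24390839 to 24393796) had 1.29, 10.8 and 24.5 TPM in waterlogged EG, against 2.4, 27.9 and 56.1 TPM in waterlogged R2G, a log2 difference of -1.35 ± 0.11 (SE, limma adjusted p = 1.18e-20). LOC105160271 (linkage group 4, 8588717 to 8592341) differed in the other direction, with 4.65, 15.7 and 86.7 TPM in EG, against 1.56, 5.57 and 62 TPM in R2G. Its log2 difference was 1.07 ± 0.15 (SE, limma adjusted p = 3.94e-09), and it was below 1 without the samples numbered 2 or 3. For all 3 genes the ranges of EG and R2G overlapped over the times of waterlogging. Without the samples numbered 1, 5 genes were called, 1 higher and 4 lower in EG.

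In drainage at 38, 42 and 46 h (9 against 9 samples), 20 of the 200 genes were called lower and 2 higher in EG, where 1.95% and 1.57% of all genes were called. The median log2 difference was -0.52 over the 200 genes, of which 189 were below 0, and -0.09 over all genes, with an upper quartile of 0.11. With median-ratio scaling 17 were lower and 3 higher, with 1.58% and 1.75% of all genes. The count rested on 42 h, where the median difference was -0.81 and 191 of the 200 genes were below 0, as were 66.9% of all genes. At 38 h it was -0.33 and at 46 h -0.25, while all genes had medians of -0.20, -0.04 and 0.01 at 42, 38 and 46 h. Without 42 h, 6 genes were called lower and 1 higher in EG. At the drained times that the rule used, the median difference was 0.12 at 40 h, -0.27 at 44 h and -0.15 at 48 h. The median level over the 200 genes at 42 h was 10.6, 21 and 11.9 TPM in EG, against 27.7, 32.9 and 19.3 TPM in R2G. The second EG plant was thus within the range of R2G. Without the samples numbered 2, 9 genes were called in drainage, and without those numbered 3, 38 were.

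LOC105160267 differed most between the genotypes in drainage. It had 41.2, 21.8 and 58.9 TPM in EG at 38 h, 31.6, 137 and 40.3 TPM in EG at 42 h and 186, 83.4 and 267 TPM in EG at 46 h, against 133, 227 and 257 TPM in R2G at 38 h, 348, 595 and 313 TPM in R2G at 42 h and 496, 287 and 344 TPM in R2G at 46 h. At each of the 3 times all EG samples were below all R2G samples, and the log2 difference was -2.12 ± 0.22 (SE, limma adjusted p = 5.06e-15). LOC105158456 (linkage group 3, 15449646 to 15452043) had a lowest, median and highest value of 27.3, 43.2 and 92.9 TPM in drained EG, against 39.8, 166 and 286 TPM in drained R2G. Its log2 difference was -1.61 ± 0.29 (SE, limma adjusted p = 4.66e-06). LOC105166206 was higher in EG, with 68.7, 94.9 and 367 TPM in drained EG, against 6.89, 26.3 and 74.7 TPM in drained R2G. Its ranges met only at their ends, with a log2 difference of 2.05 ± 0.51 (SE, limma adjusted p = 0.000964), and it was no longer called without 42 h or without the samples numbered 2. Its controls differed in the same direction, with medians of 40.4 TPM in EG and 11.4 TPM in R2G. LOC105160271 was also higher in EG, by 1.17 ± 0.25 (SE, limma adjusted p = 0.000121), and by 0.86 without 42 h. Its control medians were 82.0 TPM in EG and 45.9 TPM in R2G, and those of LOC105158456 were 49.3 TPM in EG and 76.1 TPM in R2G. Whether the differences in drainage exceeded those in the controls was not tested.

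**Figure D5:**
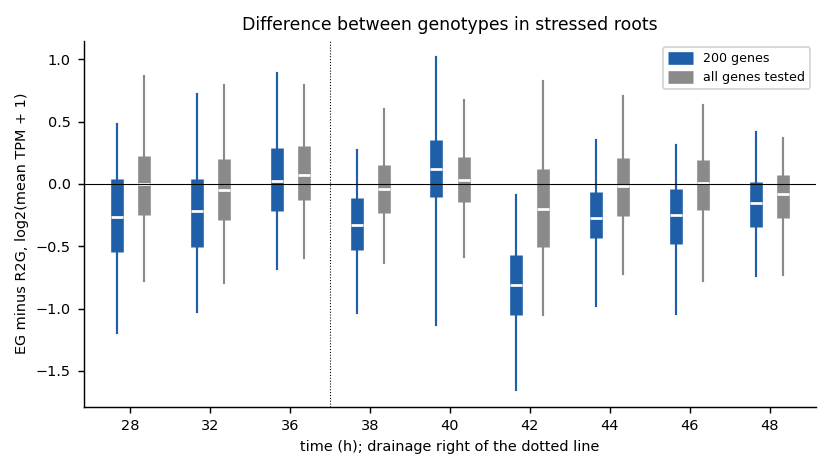
EG minus R2G in log2 of mean TPM plus 1 at 9 times in late waterlogging and drainage, with thick bars from the lower to the upper quartile, thin lines from the 5th to the 95th percentile and white marks at the median, for the 200 genes (blue) and all genes (grey). The median of the 200 genes was -0.81 at 42 h, lower than at the other 8 times, which lay between -0.33 and 0.12.

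The difference between the genotypes in the size of the return was tested as an interaction, with the change from 28 and 36 h to 38, 42 and 46 h in EG minus the same change in R2G. Of the 200 genes, 9 were called lower and 1 higher, where 1.3% and 0.341% of all genes were called, with a median of -0.41 over the 200 genes and -0.10 over all genes. The count depended on single times: without 36 h, 1 gene was called higher and 0 lower, and without 42 h 4 were called. The count was 18 without 38 h and 17 without 46 h. Without the samples numbered 2 or 3 it was 3 and 16. LOC105172933 had the largest fall of the called genes. It had 14, 16.7 and 21.3 TPM at 42 h, 55.1, 17.1 and 31.1 TPM at 46 h and 4.01, 4.3 and 6.55 TPM at 36 h in EG, against 75.7, 80.0 and 34.8 TPM at 42 h, 188, 151 and 79.7 TPM at 46 h and 1.31, 2.75 and 3.84 TPM at 36 h in R2G. The EG samples were above those of R2G at 36 h and below them at 42 and 46 h, and the interaction was -1.51 ± 0.34 (SE, limma adjusted p = 0.00181). For LOC105172131 it was -1.35 ± 0.39 (SE, limma adjusted p = 0.0189). Both lost their calls without 36 h, without 42 h, or without the samples numbered 1 or 2, with values between -1.35 and -1.08 for LOC105172131 and between -1.48 and -1.05 for LOC105172933. LOC105172131 was also not called without 28 h, at -1.41, or with the spread of the compared samples alone, at -1.35. LOC105159474 was the gene called higher, by 1.42 ± 0.29 (SE, limma adjusted p = 0.000662). It had 2.97, 1.53 and 1.52 TPM in EG at 28 h, against 18.8, 13.2 and 13.6 TPM in R2G at 28 h, and its interaction was 0.60 without 28 h. It was not called then, nor without the samples numbered 3.

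Wilting EG plants at 48 h were compared with drained EG plants at 42 and 46 h (3 against 6 samples), since the surviving EG plants at 48 h entered the choice of genes. Of the 200 genes, 22 were called lower and 1 higher in wilting plants, where 1.3% and 0.985% of all genes were called, with a median of -0.37 over the 200 genes and -0.03 over all genes. The median level over the 200 genes was 21.2, 10.5 and 9.02 TPM in wilting plants, against 17.2, 18.0 and 22.7 TPM in surviving EG plants at 48 h. The first wilting plant was within the range of the surviving ones and the other 2 were below it. The count depended on the replicates: 60 genes were called lower without the samples numbered 1, 7 without those numbered 2 and 4 without those numbered 3. With the spread taken from the 9 compared samples alone, limma called 0 of the 200 genes and 4 of all genes, with 28 and 2661 at an unadjusted p under 0.05. LOC105172593 had 18.9, 1.89 and 1.42 TPM in wilting plants, against 5.45, 30.3 and 4.92 TPM at 42 h and 74.8, 27.7 and 92.6 TPM at 46 h, a log2 difference of -2.27 ± 0.52 (SE, limma adjusted p = 0.00243). The groups overlapped, and the gene was not called without the samples numbered 2 or 3. LOC105166378 had 1.34, 6.02 and 0.839 TPM in wilting plants, against 10.1, 32.8 and 7.6 TPM at 42 h and 30.9, 8.21 and 10.6 TPM at 46 h. Its wilting samples were all below the drained ones, and the log2 difference was -2.26 ± 0.49 (SE, limma adjusted p = 0.00107). LOC105155587 was the gene called higher, by 1.01 ± 0.32 (SE, limma adjusted p = 0.03), and it was not called when the samples numbered 1, 2 or 3 were left out in turn. The wilting plants were 2 to 6 h later in drainage than those they were set against, and the part of this in the result was not tested.

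All 200 genes were protein-coding in the RefSeq table of genome v1.0. Their median length was 3545 bp, against 3615 bp for all genes tested, and 78.5% had a single annotated transcript, against 68.5%. Linkage groups 3 and 6 held 24 each and linkage group 1 held 21, or 12%, 12% and 10.5% of the 200 genes, where these groups held 10.3%, 10.9% and 8.11% of all genes, and 8 genes were on unplaced scaffolds. How many pairs of all genes lie within 50000 bp of each other was not counted. Among the 200 genes there were 12 such pairs. In 3 of them no other gene of the deposited table lay between: LOC105170038 and LOC105168630 on linkage group 1, which were 66 bp apart, LOC105163102 and LOC105163103 on linkage group 6, and LOC105164831 and LOC105164832 on linkage group 6. LOC105170038 (15190646 to 15191736) and LOC105168630 (15191803 to 15192879) had W of -3.02 and -2.36 and D of 0.27 and -0.30. Whether reads of such close genes could be assigned to the wrong neighbour was not tested. The pair on linkage group 4 that differed most between the genotypes, LOC105160267 and LOC105160271, was 9755 bp apart with 2 genes of the table between, and its members differed in opposite directions, being lower and higher in EG.

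Genes that fell as far but were not restored are given for comparison. These were 704 genes with W in the same range and D at or below -1. Against late waterlogging, 352 of them were called higher in drainage and 4 lower, with a median of 1.00, beside 188 and 0 of the 200 genes with a median of 2.33. Since D entered the choice of both groups at neighbouring times, no test was made. In the first 2 h of drainage 179 of the 704 were called higher and 10 lower, or 25.4% and 1.42%, beside 77.5% and 1% of the 200 genes. In the first 2 h of waterlogging 53.6% of the 704 were called lower, with a median of -1.08, beside 54.5% of the 200 genes with a median of -1.14. EG was called lower than R2G in drainage for 13.9% of the 704 and 10% of the 200 genes, beside 1.95% of all genes. Against late waterlogging 24.3% of all genes were called higher, and in the first 2 h of drainage 20.7%. In the first 2 h of waterlogging 23.1% of all genes were called lower.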

How the data were processed

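Roots of EG and R2G were profiled by RNA sequencing in 195 samples. The authors checked the reads with FastQC, trimmed them with Trimmomatic 0.32, aligned them with STAR to genome v1.0, counted uniquely matched reads per gene with featureCounts, and deposited the result as TPM. TPM keeps no depth, so intervals for counting error are not given, and a value of 0 is only listed as 0. Column sums were between 999096 and 999827. The lowest correlation between replicates on log2(TPM + 1) was 0.920, in EG at 28 h, and the median over conditions was 0.973.

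Conditions and replicate numbers came from the labels. The test was limma 3.58.1 (R 4.3.3), with moderated variances that follow the mean level, applied to log2(TPM + 1). Genes entered when their TPM averaged at least 1, which left 18178. One model held the 65 conditions, so that every condition shared one estimate of the spread. On this scale the change of a weakly expressed gene is understated. Benjamini-Hochberg adjustment ran over all 18178 genes. Tables and figures were made in Python 3.11.15 with numpy 2.4.6, pandas 2.3.3 and matplotlib 3.10.9.

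The gene group, the comparisons and the lists were chosen with earlier results of these data known. The rule for named genes was the 12 with the lowest W, the 5 with the highest control TPM, and called genes with the largest changes. The last were the 2 with the largest rise and the 2 with the largest fall in each of 11 comparisons. By this rule 32 genes were named. Genes next to the limits of W and D were named besides. Other genes, among them LOC105168630, LOC105163102, LOC105163103, LOC105164831 and LOC105164832, were named for their position after values were seen.

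As alternatives, the model was fitted with each replicate number left out, with the replicate number as a block, on the compared samples only, after median-ratio scaling, without the filter, and with 0.1 as the pseudocount. The alternatives that left out a time point were chosen after seeing the data. All 20271 identifiers matched the RefSeq table, which gave positions but no descriptions or sequences, so gene lists by function, promoter motifs, similar proteins and tissue markers were not used here, and the root label was not checked against markers.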

Additional observations from a re-analysis of the deposited data

Results flagged for a closer look

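The return after drainage differed between EG and R2G by the interaction test in limma for 10 of the 200 genes, 9 with the smaller return in EG and 1 with the smaller return in R2G. These were 4.5% and 0.5% of the group, where 1.3% and 0.341% of all genes were called. Of the 704 genes that were not restored, 5.4% were called lower and 0.57% higher. The genes named among the 10 were LOC105172131 at -1.35, LOC105170573 at -1.12, LOC105172933 at -1.51 and LOC105159474 at 1.42 on the log2 scale, EG minus R2G. They stand out because the same contrast differed between the genotypes by a direct test of the difference. Without 36 h, 1 gene was called higher and 0 lower, so that no call of a smaller return in EG was left. The count fell to 4 without 42 h, and what sets those times apart was not tested.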

How the results depend on the processing

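Of the results that the rule did not use, 84 of 101 recomputed counts stayed within 1.5 times the count, and 354 of 382 recomputed values of single genes stayed on their side of the threshold. With median-ratio scaling, 68 genes were called in the first 2 h of waterlogging and 27 in drainage minus 0 h, and LOC105170583 turned to -0.22 in drainage minus late waterlogging; that scaling removes the shift of the median gene. With a pseudocount of 0.1 the interaction gave 21 genes, and with only the compared samples in the model the wilting comparison gave 0. Time points were left out after seeing the data. EG minus R2G in drainage then gave 7 without 42 h, and the interaction 1, 18, 4 and 17 without 36, 38, 42 and 46 h. Leaving out each replicate number in turn gave between 2 and 5 genes for EG minus R2G in waterlogging, 9 and 38 for EG minus R2G in drainage, 3 and 16 for the interaction, and 4 and 60 for wilting plants. When the rule itself was applied without a replicate number, between 158 and 170 of the 200 genes were chosen again, and 139 with a pseudocount of 0.1. The causes were not tested.

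Samples of the same replicate number deviated together little on average: the mean correlation of deviations was 0.0152 for the same number and -0.0076 for other numbers. The correlation was over 0.1 in 29.1% of pairs with the same number and in 24.2% of pairs with other numbers. With the replicate number as a block, 24 genes were called in the wilting comparison, against 23 without it, and 188 in drainage minus late waterlogging. TPM gives no depth, so levels near 0 have an unknown precision.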
